A study of Mus musculus with 8 samples.

Results

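The genes described here encode succinate dehydrogenase, which is mitochondrial complex II, and proteins that help to build it. The group holds 6 of the 20170 genes in the deposited count matrix, chosen by name: the subunits Sdha, Sdhb, Sdhc, and Sdhd, and the assembly factors Sdhaf1 and Sdhaf2. All 6 passed the filter on low counts in every comparison reported.

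Complex II oxidizes succinate to fumarate in the TCA cycle and passes the electrons to ubiquinone in the inner mitochondrial membrane. Sdha carries the FAD cofactor and the succinate site, Sdhb carries the iron-sulfur clusters that relay the electrons, and Sdhc and Sdhd anchor both in the membrane and form the ubiquinone site. Sdhaf2 helps to attach FAD to Sdha, and Sdhaf1 helps Sdhb to receive its iron-sulfur clusters. All of these proteins are encoded in the nucleus, and T cells call on complex II more heavily when activation raises their respiration.

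Single-cell RNA sequencing (10x Genomics 3′ chemistry) was carried out on magnetically purified mouse splenic T cells in 8 libraries, 2 for each of 4 groups. WT cells and SDHA-KO cells (Sdha fl/fl with CD4-Cre, a recombinase driven by Cd4 regulatory sequences) were either cultured alone, the unstimulated state, or stimulated for 48 hours with 5 µg/mL anti-CD3 and 2.5 µg/mL anti-CD28 antibodies. The methods describe young adult mice of both sexes. The labels give the control genotype only as WT and number the replicates without saying whether they came from different mice, so p-values measure the spread between these libraries, which may be technical. Libraries held 1395 to 1801 cells and 10947009 to 51398728 UMIs (unique molecular identifiers, 1 per captured mRNA molecule). At most 3 cell barcodes were shared between any pair of libraries. Each library's UMIs were summed, and levels are given as CPM, the count relative to a fixed library total, here adjusted by TMM, as the mean ± SD of 2 libraries where averaged. In such sums, fewer cells of a type and less RNA per cell cannot be told apart.

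The libraries carried the T cell transcripts Cd3e, Cd3d, and Cd3g at a summed 1042 to 2130 CPM, which for marker lists, clusters, and neighboring genes is relative to library totals without TMM. Lists of B cell and NK cell markers reached at most 183 and 11.6 CPM. The myeloid list was at 159 to 163 in stimulated SDHA-KO and at 84.6 to 88.2 in stimulated WT, nearly all of it Cst3, with Lyz2 and Csf1r below 1 in every library, and its part in the results was not tested. Markers of γδ T cells and the mitochondrially encoded share of UMIs differed between the groups, and their values stand beside the results they move with. Over all T cells the 7 γδ T cell markers summed to 99.6 to 130 CPM in stimulated SDHA-KO libraries and to 13.7 to 15.3 in stimulated WT libraries. The median mitochondrial share per cell, taken by CD4 or CD8 class, was 14.9% to 19.0% in stimulated WT libraries and 1.77% to 3.43% in stimulated SDHA-KO libraries.

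The members lie on 6 different chromosomes (mouse build GRCm38, GENCODE M21). Sdha spans chr13:74322254-74350280 (minus strand), Sdhb chr4:140961203-140979193 (plus), Sdhc chr1:171127165-171150603 (minus), and Sdhd chr9:50596357-50603812 (minus). Sdhaf1 spans chr7:30321406-30323895 (minus) and Sdhaf2 chr19:10500534-10526142 (minus). Whether the counting used strand is not given in the sources used here, so reads could be shared with overlapping genes on the other strand, which are Gm16125 at Sdha, E130208F15Rik at Sdhaf1, and Cpsf7 at Sdhaf2. Gm16125 has no row of its own in the matrix.

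Promoter sequence is shown as a description of the members, and no link to their levels was tested. The RefSeq promoter table (GRCm38.p6, 250 bases before to 50 after each start) held 5 of the 6 members, and positions count from its starts, which differ from the outer ends above for some genes. CCGGAAG or its reverse complement CTTCCGG, letters bound by ETS family factors, occurred in the promoters of Sdhb, Sdhd, Sdhaf1, and Sdhaf2, 4 of 5. It occurred in 8.86% of all 32851 promoters and in 23.1% of the 4632 promoters of genes at or above 20 CPM. Each match is printed 5′ to 3′ on the gene's own strand with 10 bases on either side and the matching letters in capitals, at chr4:140961267-140961293 (plus) for Sdhb, chr7:30322352-30322378 (minus) for Sdhaf1, and chr19:10525177-10525203 and chr19:10525351-10525377 (minus) for Sdhaf2.
Sdhb: ctcggagaaaCCGGAAGcggccttcca
Sdhaf1: cggggcggtcCTTCCGGccagtgtggg
Sdhaf2, downstream match: tcggttgcgcCTTCCGGcttggggtcc
Sdhaf2, upstream match: ccccgccctcCTTCCGGccccgccggc

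Sdhd and Sdha both start head to head with a neighbor, and the stretch between the paired starts is short enough to print. For Sdhd the stretch is counted from its RefSeq start, which lies upstream of the outer end given above. For Sdha it is counted from the outer end given above. The 60 bases between Sdhd and Timm8b, a mitochondrial import gene, lie at chr9:50603850-50603909 (minus) and hold the Sdhd match. The 28 bases between Sdha and Ccdc127 lie at chr13:74350281-74350308 (minus).
Sdhd to Timm8b: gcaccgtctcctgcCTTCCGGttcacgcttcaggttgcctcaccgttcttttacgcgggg
Sdha to Ccdc127: ggaggggcgtgttgcgcaggcgcagaat

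The GC box GGGCGG was found in the same 4 members, against 35.7% of all promoters and 68.0% of those of genes at or above 20 CPM. CCAAT was found in Sdha, Sdhb, and Sdhaf1 (37.4% and 38.6%), the NRF1 letters GCATGCGC in Sdhb (2.71% and 6.76%), and the ERR site AAGGTCA in Sdhd (4.72% and 2.91%). The E-box CACGTG (7.15% and 11.1%), the cAMP response element TGACGTCA (1.79% and 3.78%), the TATA box TATAAA (13.6% and 7.06%), and the YY1 motif (0.633% and 2.31%) had no match in the 5 windows. All were searched on both strands, and some matches overlap others. A match is a description of these letters, not of a bound site.

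Sdha, the targeted gene, was the check of the genotype labels. Before stimulation its level was 98.0 and 99.1 CPM in WT and 46.6 and 46.1 CPM in SDHA-KO, and after stimulation 74.7 and 73.9 CPM in WT and 37.6 and 34.1 CPM in SDHA-KO. The SDHA-KO libraries lay below the WT libraries in both states, with no overlap. Sdha fell to 47.0% of the WT level in unstimulated cells (log2 fold change -1.09 ± 0.071 SE, adjusted p = 0.00036) and to 48.3% in stimulated cells (-1.05 ± 0.065, adjusted p = 6.1e-06). The difference between these effects was 0.04 on the log2 scale (± 0.096, adjusted p = 0.82). UMIs in 3′ libraries come from the transcript's end, and the position of the deleted part is not stated in the sources used here, so intact and recombined Sdha transcripts cannot be told apart.

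**Figure D1:**
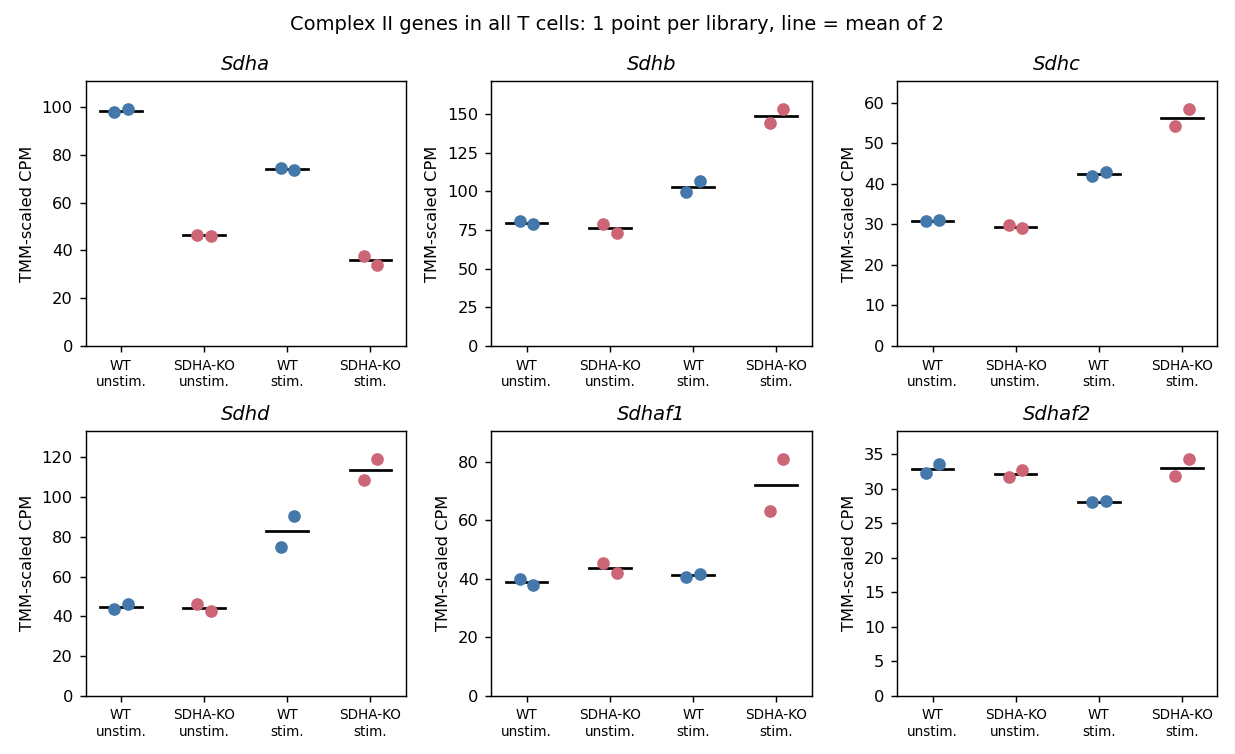
Level of each complex II gene (TMM-scaled CPM, y axis from 0) in the sums of all T cells, with 1 point per library and a line at the mean of 2, for WT (blue) and SDHA-KO (red) in both states. Sdha lies lower in SDHA-KO in both states, at 46.3 against 98.5 CPM and at 35.9 against 74.3 CPM, while the other 5 genes separate by genotype most clearly after stimulation.

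In unstimulated cells Sdha was the lone member called between SDHA-KO and WT (edgeR, adjusted p under 0.05), where 1.75% of all 15262 genes tested were called. The catalytic partner Sdhb was at 81.1 and 78.7 CPM in WT versus 79.0 and 73.4 CPM in SDHA-KO, which overlap. The anchors were at 31.0 ± 0.018 CPM (WT) and 29.5 ± 0.59 CPM (SDHA-KO) for Sdhc, and at 44.9 ± 1.8 CPM and 44.3 ± 2.5 CPM for Sdhd. The log2 fold changes of Sdhb, Sdhc, Sdhd, and Sdhaf2 lay between -0.07 and -0.02 with SE of 0.074 to 0.11. Sdhaf1 was 39.7 and 37.7 CPM in WT and 45.5 and 41.9 CPM in SDHA-KO, without overlap, and its log2 fold change of 0.17 ± 0.12 did not pass the test (adjusted p = 0.50).

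After stimulation all 5 other members were higher in SDHA-KO, and each of these differences passed the test. Over all genes, 47.2% were called and 26.2% were called higher in SDHA-KO. Sdhb, the iron-sulfur subunit, was at 99.7 and 106.4 CPM in stimulated WT and at 144.4 and 153.0 CPM in stimulated SDHA-KO. This was a rise to 1.44-fold of WT (log2 fold change 0.53 ± 0.067, adjusted p = 0.00019), well outside the spread of either pair.

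The membrane anchors moved in the same direction. Sdhc was at 42.0 and 42.9 CPM in stimulated WT and at 54.2 and 58.4 CPM in stimulated SDHA-KO (log2 fold change 0.41 ± 0.062, adjusted p = 0.00059). Sdhd was at 75.0 and 90.4 CPM in WT versus 108.4 and 119.1 CPM in SDHA-KO (0.46 ± 0.092, adjusted p = 0.0027). The WT libraries of Sdhd differed from each other more than those of Sdhc, and in neither gene did WT and SDHA-KO overlap.

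Of the assembly factors, Sdhaf1 showed the larger difference. It was at 40.7 and 41.7 CPM in stimulated WT and at 63.3 and 80.9 CPM in stimulated SDHA-KO, a rise to 1.75-fold (log2 fold change 0.81 ± 0.10, adjusted p = 0.00021). The SDHA-KO libraries were far apart, but both were above WT. Sdhaf2 was at 28.0 and 28.1 CPM in WT versus 31.8 and 34.3 CPM in SDHA-KO (0.24 ± 0.066, adjusted p = 0.015). Its call was lost on leaving out either stimulated WT library (0.22 without replicate 1, 0.23 without replicate 2) or replicate 2 of stimulated SDHA-KO (0.17).

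The SDHA-KO effect itself differed between the states for 4 members, where 27.0% of all genes were called. The difference (stimulated minus unstimulated, log2) was 0.60 ± 0.099 for Sdhb (adjusted p = 0.0026), 0.48 ± 0.10 for Sdhc (0.0072), 0.48 ± 0.14 for Sdhd (0.034), and 0.63 ± 0.16 for Sdhaf1 (0.017). Sdhaf2 had 0.27 ± 0.10 and did not pass (adjusted p = 0.081). The Sdhd call was lost on leaving out any of 6 of the 8 libraries (0.34 to 0.50), and the Sdhaf1 call on leaving out any of 4 (0.55 to 0.63). In cells under 10% mitochondrial UMIs, described next, the 4 values were 0.13, 0.09, 0.07, and 0.25, and none passed.

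**Figure D2:**
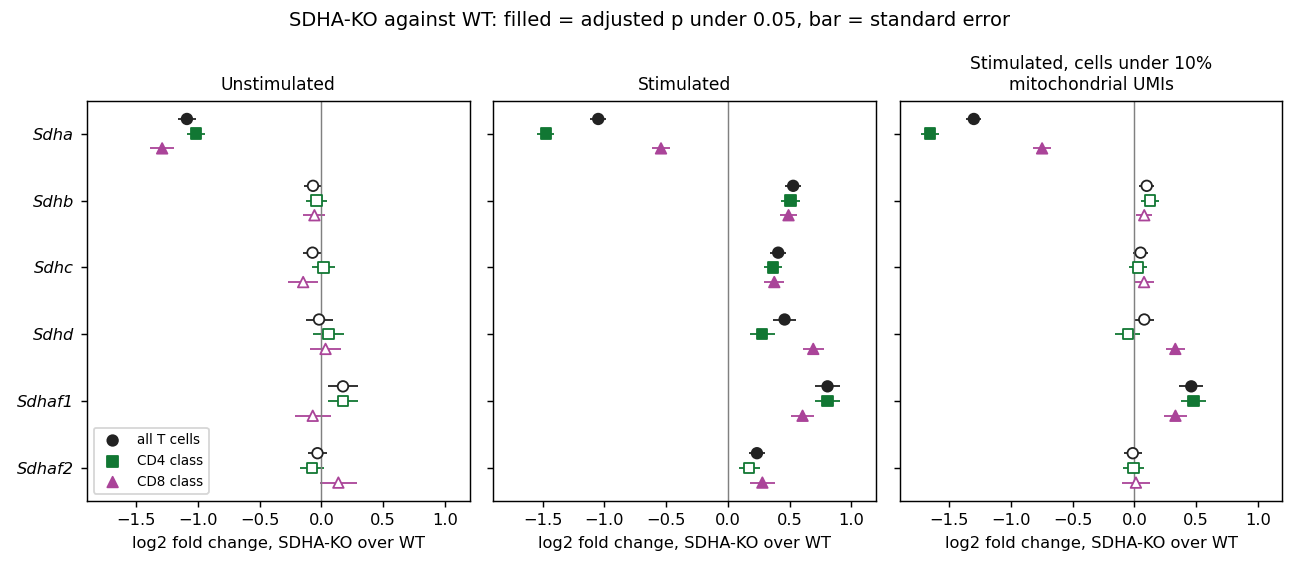
Log2 fold change of SDHA-KO over WT (x axis, bars are standard errors) for each gene in all T cells, the CD4 class, and the CD8 class, filled where the adjusted p was under 0.05. The left panel shows unstimulated cells with Sdha alone called, the middle panel stimulated cells with Sdhaf1 at 0.81 in all T cells, and the right panel stimulated cells under 10% mitochondrial UMIs, where Sdhb in all T cells is at 0.10.

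The higher levels of the other members depended on which cells were counted. Stimulated WT libraries held many cells with a large mitochondrial share: 68.2% and 64.5% of their cells had 10% or more of their UMIs from mitochondrially encoded genes, against 19.9% and 16.1% in stimulated SDHA-KO. Such cells were also shallow, with median nuclear UMIs of 8522 to 8634.5 in WT, against 59590 to 59658 in the WT cells under 10%. In stimulated SDHA-KO the medians were 6818.5 and 6456.5, against 29145 and 28603 under 10%. The cells under 10% were therefore shallower in SDHA-KO than in WT, and the part of depth was not tested. When the libraries were summed over cells under 10% alone, 1 of the 5 other members was still called higher in stimulated SDHA-KO, where 34.3% of genes were called and 17.4% called higher. At least 99.8% of unstimulated cells lay under this limit in each library and class.

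In these low-mitochondrial cells Sdhb was at 140.2 and 142.0 CPM in stimulated WT and at 148.7 and 153.9 CPM in stimulated SDHA-KO (log2 fold change 0.10 ± 0.058, adjusted p = 0.22). Sdhc was at 55.7 and 54.4 CPM in WT versus 55.7 and 58.3 CPM in SDHA-KO (0.05 ± 0.060, adjusted p = 0.56), and Sdhd was at 97.9 and 113.4 CPM against 107.5 and 116.0 CPM (0.08 ± 0.081, adjusted p = 0.48). Sdhaf2 had a log2 fold change of -0.01 ± 0.072 (adjusted p = 0.91). Compared with the sums of all cells, the WT libraries had moved up toward SDHA-KO, and the SDHA-KO libraries had moved little.

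Sdhaf1 and Sdha kept their calls. Sdhaf1 was at 53.9 and 51.9 CPM in low-mitochondrial WT cells and at 64.6 and 81.0 CPM in SDHA-KO (log2 fold change 0.46 ± 0.099, adjusted p = 0.0060). Sdha was at 78.5 and 77.5 CPM in WT versus 32.9 and 30.4 CPM in SDHA-KO (-1.30 ± 0.062, adjusted p = 2.1e-06). The Sdha deficit was -1.30 in these cells and -1.05 in all cells, and the difference between them was not tested.

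Within the stimulated libraries the members divided by mitochondrial share. In CPM of nuclear UMIs, Sdhb was at 145.5 and 145.4 in WT cells under 10% and at 66.3 and 69.1 in WT cells at or above it. In SDHA-KO the corresponding values were 169.3 and 174.6, and 81.8 and 76.7. Sdhc and Sdhaf1 were likewise lower in the high-mitochondrial cells of all 4 stimulated libraries. Sdha went the other way in all 4, from 81.4 and 79.3 up to 122.3 and 115.0 in WT, and from 37.5 and 34.5 up to 126.6 and 111.7 in SDHA-KO. Sdhd was lower in the high-mitochondrial cells of WT and higher in those of SDHA-KO.

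**Figure D3:**
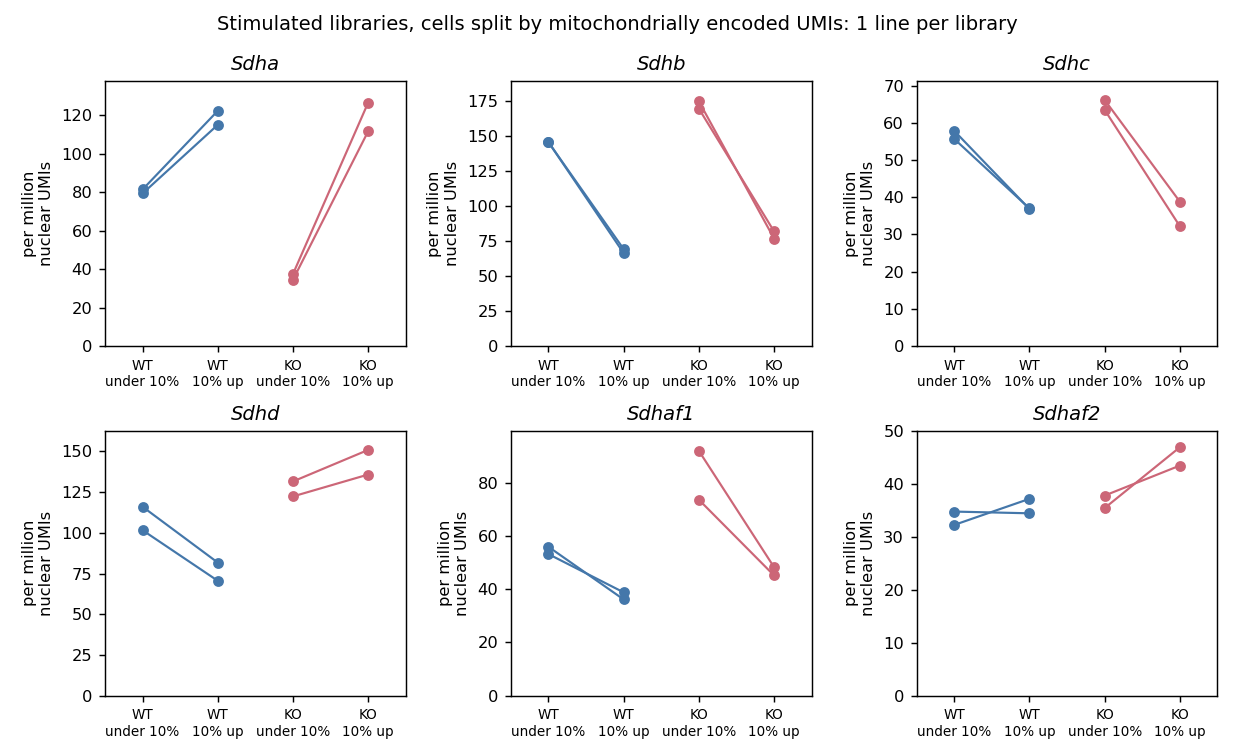
Level of each gene as CPM of nuclear UMIs (y axis from 0) in stimulated cells under 10% and at or above 10% mitochondrially encoded UMIs, with 1 line per library (WT blue, SDHA-KO red). Sdhb falls from 145.5 to 66.3 in the first WT library, Sdha climbs to 126.6 in the high-mitochondrial cells of the first SDHA-KO library, and Sdhd slopes down in WT and up in SDHA-KO.

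High Sdha in the high-mitochondrial cells of SDHA-KO came with Trdc, the constant region of the T cell receptor δ chain. A Trdc UMI was found in 147 of 328 such cells and in 109 of 270 in the SDHA-KO libraries, against 270 of 1320 and 224 of 1410 cells under 10%. In stimulated WT the shares were 2.32% to 4.69% in both kinds of cell. In SDHA-KO cells under 10%, Sdha was at 28.4 and 27.5 CPM of nuclear UMIs in cells without a Trdc UMI and at 59.0 and 57.2 in cells with one. In cells at or above 10% it was at 85.1 and 81.3 without and at 161 and 147 with a Trdc UMI. In stimulated WT cells under 10%, Sdha was at 81.6 and 79.0 without and at 74.7 and 85.9 with a Trdc UMI, and in those at or above 10% at 122.0 and 114 without and at 131 and 128 with one. In SDHA-KO both the mitochondrial share and Trdc went with more Sdha, and the part of each was not tested. The SDHA-KO cells at or above 10% without Trdc rest on 104 and 92 Sdha UMIs.

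Stimulation itself changed most members. In WT cells, where 68.9% of all genes were called between the states, Sdhb rose 1.29-fold (log2 fold change 0.37 ± 0.071, adjusted p = 0.0011), Sdhc 1.37-fold (0.45 ± 0.071, adjusted p = 0.00027), and Sdhd 1.84-fold (0.88 ± 0.10, adjusted p = 3.3e-05). Sdha fell by 0.41 on the log2 scale (± 0.066, adjusted p = 0.00036), so that the subunit with the FAD went down while the other subunits went up. Sdhaf1 was at 38.7 ± 1.4 CPM before and 41.2 ± 0.72 CPM after (adjusted p = 0.51). Sdhaf2 fell by 0.23 (± 0.073, adjusted p = 0.019), a call that was lost on leaving out any of 6 libraries.

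In low-mitochondrial cells the stimulation of WT gave larger rises. Sdhb went from 75.5 ± 1.2 to 141 ± 1.3 CPM (log2 fold change 0.90), Sdhc from 29.3 ± 0.16 to 55.1 ± 0.95 CPM (0.91), and Sdhd from 42.4 ± 1.9 to 106 ± 11 CPM (1.32). Sdhaf1, which did not pass in all cells, rose from 36.6 ± 1.2 to 52.9 ± 1.4 CPM (0.53, adjusted p = 0.0016), Sdha fell by 0.26 (adjusted p = 0.0042), and Sdhaf2 turned to 0.07.

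In SDHA-KO cells, where 71.1% of all genes were called, stimulation raised Sdhb 1.95-fold, Sdhc 1.91-fold, Sdhd 2.57-fold, and Sdhaf1 1.65-fold. Sdha fell by 0.37 (± 0.070, adjusted p = 0.00091), and Sdhaf2 had 0.04 ± 0.071 (adjusted p = 0.63). The comparisons of states and of genotypes share libraries and are not independent of each other. The falls of Sdha depended on the scaling, which moved the median of all genes by -0.35 in WT and -0.22 in SDHA-KO relative to library totals alone. With totals alone the Sdha values were -0.06 and -0.15 and did not pass, Sdhaf2 turned to 0.12 in WT, and the rises of Sdhb, Sdhc, and Sdhd kept their calls.

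At equal total UMIs per cell, shares of cells with a UMI separated the genotypes as the levels in the sums of all cells did. Thinned to 5000 UMIs per cell, 33.5% ± 0.90 of unstimulated WT cells, 18.9% ± 1.5 of unstimulated SDHA-KO cells, 34.9% ± 0.0059 of stimulated WT cells, and 19.6% ± 1.6 of stimulated SDHA-KO cells had a Sdha UMI (n = 2 libraries each). Without thinning the shares were 48.5%, 30.4%, 73.0%, and 53.2%, since stimulated cells were deeper. The shares of both WT groups were alike where the summed level fell with stimulation, so no order between the states is read from them. The thinning left out 43 to 181 cells per group.

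Among the other members, thinned shares for Sdhb were 30.2% and 30.4% in unstimulated WT and SDHA-KO, and 29.6% and 50.4% after stimulation. For Sdhd they were 17.7%, 18.6%, 30.5%, and 41.7% in the same order, and for Sdhaf1 14.7%, 18.0%, 15.6%, and 30.9%. Sdhc went from 15.5% in stimulated WT to 23.4% in stimulated SDHA-KO, and Sdhaf2 from 13.1% to 16.5%. No cell type in the matrix should lack these genes, so free RNA could not be gauged from one, and 2 libraries against 2 cannot go below a two-sided exact permutation p of 0.333. Thinned shares weight each cell equally. High-mitochondrial cells, before thinning, made up 68.2% and 64.5% of the stimulated WT libraries and 19.9% and 16.1% of the stimulated SDHA-KO libraries. In sums of low-mitochondrial cells the stimulated log2 fold change of Sdhb was 0.10 and did not pass. There Sdhaf1 alone of these members kept its call, at 0.46. The part of this makeup in the thinned shares was not tested.

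The deposited table places each cell in a CD4 or a CD8 class by its cluster. In unstimulated cells Sdha fell in both classes, from 100.5 and 100.1 CPM to 49.8 and 49.4 CPM in the CD4 class (log2 fold change -1.02 ± 0.073, adjusted p = 8.5e-05), and from 91.4 and 95.7 CPM to 39.0 and 37.6 CPM in the CD8 class (-1.29 ± 0.095, adjusted p = 9.8e-05). No other member was called in either, where 1.10% and 0.947% of genes were. The difference of the Sdha effect between the classes, -0.26 ± 0.11, did not pass (adjusted p = 0.62). Over all genes 6 passed this test of classes in unstimulated cells, 0.0421%, and 1022 had an unadjusted p under 0.05.

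After stimulation the classes parted. In the CD4 class Sdha went from 74.0 and 73.1 CPM in WT to 26.5 and 26.4 CPM in SDHA-KO, 36.0% of WT (log2 fold change -1.47 ± 0.068, adjusted p = 1.0e-07). In the CD8 class it went from 76.2 and 74.9 CPM to 53.3 and 50.4 CPM, 68.7% of WT (-0.54 ± 0.070, adjusted p = 8.7e-05). The difference between the classes, 0.94 ± 0.072 on the log2 scale, passed the test (adjusted p = 1.8e-06), where 25.4% of genes did.

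Within the SDHA-KO libraries, stimulation took Sdha in opposite directions in the deposited classes. It fell by 0.91 in the CD4 class (± 0.072, adjusted p = 5.5e-07; 69.8% of genes called) and rose by 0.44 in the CD8 class (± 0.092, adjusted p = 0.0013; 68.2%). In WT it fell by 0.45 in the CD4 class (± 0.069, adjusted p = 0.00013; 66.3%) and by 0.31 in the CD8 class (± 0.076, adjusted p = 0.0039; 65.7%), where scaling by totals alone turned it to 0.17. Accordingly, the SDHA-KO effect on Sdha differed between the states in both classes, by -0.46 ± 0.099 in CD4 (adjusted p = 0.0082; 21.4%; -0.41 and not called without stimulated WT replicate 1) and by 0.75 ± 0.12 in CD8 (adjusted p = 0.0015; 23.8%).

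The makeup of the CD8 class differed between the genotypes. Its 7 γδ T cell markers summed to 289 CPM in both stimulated SDHA-KO libraries and to 22.8 and 26.4 in stimulated WT, and Trdc alone was at 124 and 132 CPM against 7.7 and 10.9. Cells with a Trdc UMI and none of Cd4, Cd8a, or Cd8b1, here called Trdc-only cells, were 172 of the 511 and 117 of the 396 CD8-class cells of stimulated SDHA-KO. In the stimulated WT libraries they were 17 and 16 cells, and in unstimulated SDHA-KO 25 and 28. Cd163l1 was at 0 in the CD8 class of stimulated SDHA-KO replicate 2, and the other 6 markers were present in both stimulated SDHA-KO libraries.

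When cells of either deposited class were regrouped by their transcripts, the Sdha loss was of like size in both groups. Strict CD8 cells had a Cd8a or Cd8b1 UMI and none of Cd4 or Trdc, and strict CD4 cells had a Cd4 UMI and none of Cd8a, Cd8b1, or Trdc. Of the strict CD8 cells of stimulated SDHA-KO, 76 of 245 and 66 of 213 lay in the deposited CD4 class. In stimulated WT these were 62 of 798 and 81 of 790, and their part in the values was not tested. In strict CD8 cells Sdha was at 76.3 and 75.0 CPM in stimulated WT and at 26.5 and 27.6 CPM in stimulated SDHA-KO (log2 fold change -1.48 ± 0.087, adjusted p = 4.7e-08; 49.4% of genes called). In strict CD4 cells it was at 75.3 and 71.1 CPM and at 25.5 and 25.8 CPM (-1.51 ± 0.082, adjusted p = 6.3e-08; 41.3%). The difference of these effects was 0.01 ± 0.0998 (adjusted p = 0.98).

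The same regrouping turned the direction of the stimulation effect in SDHA-KO CD8 cells. In strict CD8 cells of SDHA-KO, Sdha went from 34.9 and 38.0 CPM unstimulated to 26.5 and 27.6 CPM stimulated, a fall of 0.43 in place of the rise of 0.44 (adjusted p = 0.0061; 64.8% of genes called). In unstimulated strict cells Sdha fell by 1.38 in CD8 (1.83% of genes called) and by 1.04 in CD4 (1.14%). Cd4 UMIs were themselves scarcer in WT than in SDHA-KO libraries, at 56.0 to 59.6 against 97.7 to 109 CPM after stimulation and at 89.5 to 96.2 against 407 to 475 before it. The strict CD4 rule kept 55.8% and 56.8% of the unstimulated WT CD4 class against 82.1% and 79.2% in SDHA-KO, and 56.7% and 56.0% against 56.0% and 59.3% after stimulation. The strict CD8 rule kept 94.2% and 94.4% of the unstimulated WT CD8 class against 74.2% and 81.1% in SDHA-KO. After stimulation it kept 87.2% and 85.0% in WT against 33.1% and 37.1% in SDHA-KO, so unlike parts of the CD8 class were compared.

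Trdc-only cells of the SDHA-KO libraries carried more Sdha than the strict cells of the same libraries. In a fit of these libraries alone, stimulated Trdc-only cells had 71.4 and 73.2 CPM, strict CD4 cells 25.8 and 26.2 CPM, and strict CD8 cells 28.8 and 29.9 CPM. Strict CD4 cells were lower by 1.47 ± 0.095 on the log2 scale (adjusted p = 7.2e-11; 47.6% of genes called) and strict CD8 cells lower by 1.30 ± 0.10 (adjusted p = 4.5e-09; 32.5%). Strict CD4 and strict CD8 cells did not differ past the threshold in any member (19.6%), and for Sdha the difference was -0.17 ± 0.10 (adjusted p = 0.27).

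In unstimulated SDHA-KO libraries, which held 36 and 35 Trdc-only cells, Sdha was at 63.8 and 64.0 CPM in these, at 47.3 and 48.3 CPM in strict CD4 cells, and at 35.5 and 38.7 CPM in strict CD8 cells. The difference passed against strict CD8 cells (log2 -0.78 ± 0.23, adjusted p = 0.043; 5.95% of genes called) and not against strict CD4 cells (-0.42 ± 0.21, adjusted p = 0.32; 7.40%). The former call was lost on leaving out any of the 4 libraries. The Trdc-only cells of WT, 13 to 22 per library, were not part of this fit.

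**Figure D4:**
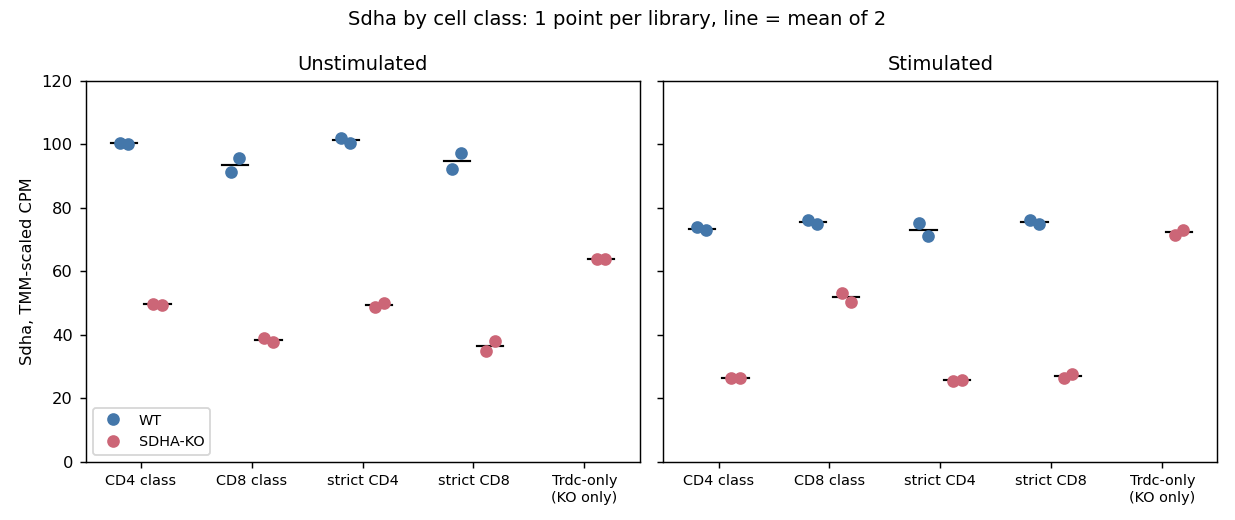
Sdha level (TMM-scaled CPM, y axis from 0) by deposited class, by strict class, and in Trdc-only cells of SDHA-KO, with 1 point per library and a line at the mean of 2, where each kind of sum was scaled in its own fit. After stimulation the SDHA-KO points lie at 51.8 CPM on average in the deposited CD8 class, at 27.1 CPM in strict CD8 cells, and at 72.3 CPM in Trdc-only cells.

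Other members also differed between Trdc-only and strict cells of stimulated SDHA-KO. Sdhd, the smaller anchor, was at 149 ± 7.5 CPM in Trdc-only cells, 102 ± 11 CPM in strict CD4 cells, and 116 ± 4.1 CPM in strict CD8 cells, and both differences passed (log2 -0.55 and -0.36, adjusted p = 1.2e-05 and 0.0029). Sdhaf1 went the other way, with 46.7 ± 2.5 CPM in Trdc-only cells against 81.0 ± 12 and 79.7 ± 3.7 CPM (0.79 and 0.77, adjusted p = 2.1e-06 and 1.2e-05). Sdhb was at 147 ± 7.8, 148 ± 6.6, and 158 ± 1.4 CPM and did not pass in either comparison. Sdhc was called higher in strict CD4 (0.27) and strict CD8 cells (0.35), and lost both calls without stimulated SDHA-KO replicate 2 (0.13 and 0.20).

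In the deposited classes the other members were higher in stimulated SDHA-KO in both. In the CD4 class 4 of 5 were called higher (43.2% of genes called, 22.7% called higher), with Sdhb at 0.51, Sdhc at 0.36, Sdhaf1 at 0.81, and Sdhd at 0.28 on the log2 scale. The Sdhd call was near the threshold (adjusted p = 0.046) and was lost on leaving out any of 4 libraries. In the CD8 class all 5 were called higher (50.4% called, 26.8% called higher), led by Sdhd at 0.69 ± 0.087 and Sdhaf1 at 0.61 ± 0.096, and the Sdhaf2 call there (0.28, adjusted p = 0.043) was lost on leaving out any of 5 libraries.

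In cells under 10% mitochondrial UMIs these counts fell to 1 in the CD4 class (32.8% of genes called) and to 2 in the CD8 class (35.4% called, 18.4% called higher). Sdhaf1 was called in both, at 0.48 ± 0.10 and 0.33 ± 0.096. The second CD8 call was Sdhd, at 0.33 ± 0.075 (adjusted p = 0.0055), where Trdc-only cells were also counted.

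Sdhaf1 was lower in the CD8 than in the CD4 class in all 4 groups, and Sdhd was higher in 3 of them. In unstimulated WT, Sdhaf1 was lower in the CD8 than in the CD4 class by 0.55 ± 0.11 (adjusted p = 0.0041) and Sdhd higher by 0.36 ± 0.093 (adjusted p = 0.017), where 15.2% of genes were called. The same members were called in unstimulated SDHA-KO, at -0.78 and 0.35, together with Sdha at -0.33 (14.9%). In stimulated WT, Sdhaf1 (-0.31) and Sdhc (-0.16, adjusted p = 0.046) were called (26.0%), the latter only with all 8 libraries, and Sdhd was at -0.06 (adjusted p = 0.48). In stimulated SDHA-KO, Sdha was higher in the CD8 class by 1.03, Sdhd higher by 0.36, Sdhaf1 at -0.50, and Sdhc at -0.14 (49.2%). With strict cells none of these 4 passed in stimulated SDHA-KO, and Sdhc turned to 0.04. For Sdhd after stimulation, the class difference itself differed between the genotypes, with SDHA-KO above WT by 0.42 ± 0.070 (adjusted p = 0.00065). In strict CD4 cells, Sdhd was at 82.6 ± 12 CPM in stimulated WT and at 100 ± 11 CPM in stimulated SDHA-KO. In strict CD8 cells it was at 80.7 ± 11 and 107 ± 4.2 CPM. The mean of SDHA-KO was above that of WT in both groups, and no call is read from these means.

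The deposited subtypes divide each class further into naive, central memory (Tcm), effector memory (Tem), and regulatory (Treg) cells. Clusters of the same name were summed, and 9 such families had at least 20 cells in all 4 libraries of their state. Among unstimulated cells, Sdha fell in CD4 naive cells, from 94.1 and 94.7 CPM to 42.9 and 40.7 CPM (log2 fold change -1.18, adjusted p = 8.9e-08; 3.57% of genes called), and in CD8 naive cells, from 79.2 and 85.9 CPM to 27.9 and 28.9 CPM (-1.54, adjusted p = 2.8e-09; 5.00%).

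The antigen-experienced families of unstimulated cells had smaller, uncalled differences. Sdha was at 104 and 86.3 CPM in WT versus 81.6 and 76.8 CPM in SDHA-KO CD4 Tem (-0.27 ± 0.21; 7.83%), and at 88.4 and 64.0 CPM against 56.8 and 57.2 CPM in CD8 Tcm (-0.42 ± 0.24; 0.496%). In Treg cells it was at 94.1 and 99.6 CPM against 43.9 and 63.6 CPM (-0.83 ± 0.24, adjusted p = 0.13; 0.706%). With TMM scaling both SDHA-KO libraries were below both WT libraries in each of these families. Relative to the UMI totals of their own cells, the clusters CD4_Tem1 and CD8_Tcm1 of these families overlapped between the genotypes. No other member was called in any unstimulated family.

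Among stimulated cells, Sdha fell from 81.0 and 79.8 CPM to 25.4 and 24.2 CPM in CD4 Tem (-1.70, adjusted p = 4.6e-05; 31.7% of genes called). It fell less in CD4 Tcm, from 96.5 and 95.9 CPM to 49.7 and 64.0 CPM (-0.76, adjusted p = 0.0033; 25.1%), and in CD8 Tem, from 82.0 and 81.0 CPM to 48.0 and 46.8 CPM (-0.78, adjusted p = 0.00081; 33.4%). In CD8 Tcm it was at 110 and 105 CPM in WT versus 102.2 and 97.1 CPM in SDHA-KO, and this did not pass (-0.10 ± 0.097, adjusted p = 0.46; 27.9%). The CD8 families hold Trdc-only cells, 172 of the 511 and 117 of the 396 cells of the stimulated SDHA-KO CD8 class, whose part in these values and in those of Sdhd was not tested. Whether the effects differ between families was not tested.

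**Figure D5:**
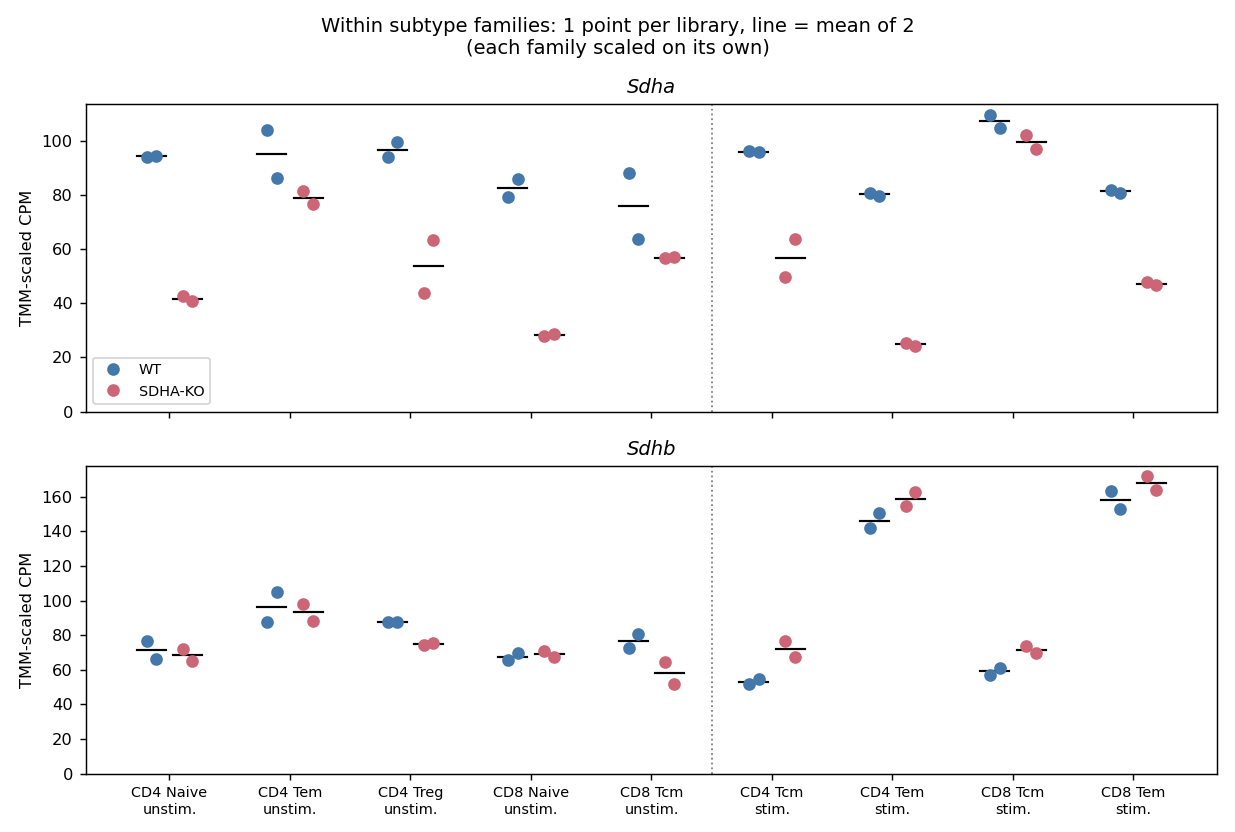
Sdha (top) and Sdhb (bottom) in the subtype families (TMM-scaled CPM, y axis from 0), with 1 point per library, a line at the mean of 2, and each family scaled on its own. Sdha separates most in CD4 Tem after stimulation (80.4 against 24.8 CPM) and least in CD8 Tcm after stimulation (107 against 99.7 CPM), and Sdhb in stimulated CD4 Tem is at 146 against 159 CPM.

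Within the stimulated families 1 or 2 of the 5 other members were called. Over all genes 25.1% to 33.4% were called there, so these counts are near the background. In stimulated CD4 Tem, Sdhb was at 146 ± 5.9 CPM in WT and 159 ± 5.8 CPM in SDHA-KO (log2 fold change 0.12, adjusted p = 0.25), and Sdhaf1 was the lone other member called (0.46 ± 0.10, adjusted p = 0.016). In stimulated CD4 Tcm, Sdhaf1 (0.73, adjusted p = 0.0063) and Sdhb (0.43, adjusted p = 0.028) were called. In both CD8 families Sdhd alone was called, at 68.2 ± 10 CPM in WT and 130 ± 13 CPM in SDHA-KO in Tcm (0.92, adjusted p = 0.0037), and at 113 ± 4.4 and 141 ± 6.5 CPM in Tem (0.32, adjusted p = 0.014).

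Single clusters were compared where all 4 libraries of their state held at least 20 cells, and other clusters were left out. The measure was CPM of the cluster's UMIs. Both SDHA-KO libraries lay below both WT libraries for Sdha in 8 of 8 such stimulated CD4 clusters, with ratios of the means from 0.312 to 0.792. The same held in 3 of 4 such stimulated CD8 clusters. The exception, CD8_Tcm4, had 115 CPM in SDHA-KO and 98.2 CPM in WT, with both SDHA-KO libraries above. In unstimulated cells the separation held in 5 of 6 CD4 and 4 of 5 CD8 clusters, and CD4_Tem1 and CD8_Tcm1 overlapped. Sdhb and Sdhaf1 lay above WT in 8 of 8 stimulated CD4 clusters, and Sdhd in 4 of 4 stimulated CD8 clusters with ratios from 1.51 to 2.21. Sdhb and Sdhaf1 lay above WT in 2 of 4 stimulated CD8 clusters, Sdhd in 4 of 8 stimulated CD4 clusters, Sdhc in 5 of 8 CD4 and 2 of 4 CD8 clusters, and Sdhaf2 in 5 of 8 and 3 of 4. The share of all genes that separate in this way was not computed, so these counts have no background. All clusters come from the same libraries and are not independent, and their UMI totals include mitochondrially encoded UMIs.

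The genes with the closest pattern over the 8 libraries were found by the root mean square (RMS) difference in log2 CPM, each gene centered on its mean, among 5726 genes of at least 20 CPM. These are descriptions over libraries that share their groups. Sdhb lay closest to Uqcrb (0.032) and Esd (0.033), Sdhc to Ndufa4 (0.028) and Snrnp40 (0.028), and Sdhd to Eloc (0.040) and Lsm3 (0.068). Sdhaf1 lay closest to Fas (0.060) and Gtf2a2 (0.072), and Sdhaf2 to Ndufs4 (0.037) and Vapa (0.039).

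Sdha had no near match. Its closest genes were Cd8a (0.18), mt-Nd3 (0.25), and Fhit (0.25), and its distance to the other members was 0.61 to 1.00. Sdhb and Sdhc were 0.052 apart, the smallest distance between members. Cd8a was at 122 and 148 CPM in unstimulated WT, 61.9 and 54.9 CPM in unstimulated SDHA-KO, 73.6 and 78.6 CPM in stimulated WT, and 40.3 and 43.6 CPM in stimulated SDHA-KO. Of the head-to-head neighbors, Ccdc127, opposite Sdha, was at 19.2 to 20.8 CPM in unstimulated WT and 23.9 to 24.1 in unstimulated SDHA-KO, and after stimulation at 36.1 to 38.5 CPM in WT and 32.6 to 34.5 in SDHA-KO. Timm8b, opposite Sdhd, was at 122 to 126 CPM in stimulated WT and 164 to 189 in stimulated SDHA-KO.

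The proteins around complex II were described with 8 gene lists. In unstimulated cells 0 members of any list were called between SDHA-KO and WT by edgeR, where 1.75% of all 15262 genes tested were called. After stimulation each list held genes called higher in SDHA-KO, and 0 genes were called lower, where 47.2% of all genes were called and 26.2% called higher. Several of the shares below are near that background. The other SDH assembly factors had 1 of 2 higher, iron-sulfur cluster assembly 11 of 14, riboflavin and FAD supply 4 of 5, and enzymes that make or use succinate or fumarate 2 of 6. Other enzymes that hand electrons to ubiquinone had 4 of 6, ubiquinone synthesis 4 of 11, mitochondrial proteins that act on SDH 1 of 3, and the succinate carriers 2 of 2 (Sucnr1, also listed, did not pass the filter on low counts). Median log2 fold changes in that order were 0.56, 0.52, 0.78, 0.21, 0.54, 0.22, -0.06, and 0.83, with 0.00 over all genes.

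By a rule on the largest called change, each list gave 1 gene for this comparison. Sdhaf4, which helps Sdha with its FAD to join Sdhb, was at 10.7 and 11.8 CPM in stimulated WT and at 21.7 and 25.01 CPM in stimulated SDHA-KO (log2 fold change 1.05). Bola3, which acts late in iron-sulfur cluster delivery, rose by 0.93, and the riboflavin transporter Slc52a2 by 1.04. The succinyl-CoA ligase subunit Suclg1 rose by 0.53, the sulfide oxidizing enzyme Sqor by 0.81, and the ubiquinone hydroxylase Coq7 by 0.51. The desuccinylase Sirt5 rose by 0.71 and the dicarboxylate carrier Slc25a10 by 1.01. In low-mitochondrial cells, where 34.3% of all genes were called and 17.4% called higher, the lists held 1, 5, 3, 1, 1, 2, 1, and 2 genes called higher, several of them near that share, and 1 gene each of the iron-sulfur list and of the list acting on SDH was called lower.

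Stimulation of WT cells moved these lists both ways, where 68.9% of all genes were called. Iron-sulfur cluster assembly had 6 higher and 2 lower of 14, and ubiquinone synthesis 7 higher and 1 lower of 11. Riboflavin and FAD supply had 1 higher and 3 lower of 5, succinate and fumarate enzymes 2 and 1 of 6, other donors to ubiquinone 2 and 2 of 6, proteins acting on SDH 2 and 1 of 3, and the carriers 1 and 1 of 2. The other assembly factors had 0 higher and 1 lower, Sdhaf4, which went from 37.3 and 35.4 CPM to 10.7 and 11.8 CPM (log2 fold change -1.69).

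The largest rises in this comparison were in the mitochondrial chaperone Hspa9 (1.60), the flavin and folate carrier Slc25a32 (0.46), fumarase Fh1 (1.62), Dhodh of pyrimidine synthesis (0.82), Coq7 (2.36), the chaperone Trap1 (0.82), and Slc25a10 (1.06). Coq7 went from 7.9 and 6.5 CPM to 37.7 and 35.5 CPM. The largest falls were in Isca1 (-0.63), Suclg2 (-0.18), Coq8a (-1.01), Sirt5 (-0.60), and the oxoglutarate carrier Slc25a11 (-0.40). The riboflavin transporter Slc52a3 (-2.08) and choline dehydrogenase Chdh (-3.35) were also called lower, but rest on 4 to 12 UMIs per WT library.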

How the data were processed

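Splenic T cells were profiled in 8 libraries of 4 groups, assigned by the labels' titles and characteristics. The authors made the deposited counts, whole UMIs per gene and cell, with bcl2fastq and Cell Ranger on mm10 according to the submitters' processing notes (versions not given in the sources used here), merged the libraries in Seurat, and removed cells above a limit of detected genes and clusters without CD3 genes. The deposited cell table holds their CD class, Subtype, and the percent of UMIs from mitochondrially encoded genes. No doublet caller was run here.

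UMIs were summed per library and class. Sums were tested across all genes with edgeR 4.0.16 in R 4.3.3 (quasi-likelihood F test, TMM, filterByExpr with a minimum count of 10 and a total of 15, Benjamini-Hochberg adjustment, called at an adjusted p under 0.05), and the procedure was tested on simulated data. Subtype clusters with the same name were summed into families. DESeq2 1.42.0, Python 3.11.15, numpy 2.4.6, pandas 2.3.3, scipy 1.17.1, and matplotlib 3.10.9 were also used. The spread between replicate libraries was about 8.71% in the sums of all cells, and replicate pairs differed by more than sampling noise (chi-square per degree of freedom 2.16 to 19.7).

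Alternatives were no TMM, DESeq2 size factors and test, no filter, only the 4 libraries compared, each library left out, a replicate block, mitochondrially encoded genes left out, cells under 10% mitochondrial UMIs, and strict classes by UMIs. The members and lists were chosen with earlier results of these data known. Pathway genes were named by the largest called rise and fall of each list, and genes alike by the smallest RMS difference. For the pathway lists, the limit on mitochondrial UMIs was added after seeing the data, as was the side-by-side view of cells under and above it. Promoter sequences are from RefSeq (GRCm38.p6).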

Additional observations from a re-analysis of the deposited data

Results flagged for a closer look

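The SDHA-KO effect differed between stimulated and unstimulated cells, by the test of the difference itself, for several members (stimulated minus unstimulated, log2). In all T cells (27.0% of genes called) these were Sdhb (0.60), Sdhc (0.48), Sdhd (0.48), and Sdhaf1 (0.63). In the CD4 class (21.4%) they were Sdha (-0.46), Sdhb (0.55), and Sdhaf1 (0.63), where the Sdha deficit was larger after stimulation. The CD4 call of Sdhaf1 was lost on leaving out either unstimulated WT library or unstimulated SDHA-KO replicate 2 (0.54 to 0.68), and those of Sdha and Sdhb on leaving out 1 each (-0.41 for Sdha without stimulated WT replicate 1, 0.48 for Sdhb without unstimulated WT replicate 1). In the CD8 class (23.8%) they were Sdha (0.75), Sdhb (0.55), Sdhc (0.52), Sdhd (0.66), and Sdhaf1 (0.68), where the Sdha deficit was smaller after stimulation. There the call of Sdhc was lost on leaving out any library but stimulated WT replicate 2 or stimulated SDHA-KO replicate 1 (0.46 to 0.55). That of Sdhd was lost without either unstimulated WT library or without unstimulated SDHA-KO replicate 1 (0.60 to 0.65), and that of Sdhaf1 without any of these or stimulated WT replicate 1 (0.59 to 0.69).

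Between the deposited CD8 and CD4 classes, the SDHA-KO effect after stimulation differed for Sdha by 0.94 and for Sdhd by 0.42. With strict classes by UMIs the Sdha difference was 0.01, and the values of Trdc-only cells stand beside it in the report. For Sdhd, levels in strict and in Trdc-only cells after stimulation are also given there.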

How the results depend on the processing

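The fall of Sdha in SDHA-KO held its direction and its call under every alternative run, with log2 fold changes of -1.09 to -0.996 in unstimulated and -1.30 to -0.99 in stimulated sums of all cells. Over all results and alternatives, most values kept their direction and their side of the threshold. These were 185 of 188 values of the main Sdha comparisons (1 reversed) and 168 of 184 of the other Sdha comparisons (2 reversed). For the other members they were 1704 of 1860 values (5 reversed).

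With cells under 10% mitochondrial UMIs, the count of other members called higher in stimulated SDHA-KO went from 5 to 1 in all cells, from 4 to 1 in the CD4 class, and from 5 to 2 in the CD8 class. There, Sdhd in the CD4 class was -0.053 and Sdhaf2 in all cells -0.013 for SDHA-KO against WT, and Sdhaf2 was 0.067 for stimulated against unstimulated WT. With strict classes by UMIs, the difference of the Sdha effect between classes after stimulation was 0.0073 (adjusted p = 0.98). In strict CD8 cells Sdha was -0.43 for stimulation in SDHA-KO and -0.11 (adjusted p = 0.65) for the change of the knockout effect with stimulation, and Sdhc was 0.037 for CD8 against CD4 in stimulated SDHA-KO. Without TMM, stimulation of WT gave 0.17 for Sdha in the CD8 class and 0.12 for Sdhaf2 in all cells.

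Leaving out each library in turn gave -0.46 to -0.41 for the change of the knockout effect on Sdha with stimulation in the CD4 class, and the value without stimulated WT replicate 1 (-0.41, adjusted p = 0.053) was no longer called. The replicate numbers did not pair the libraries (correlations of deviations -0.23 to -0.00072 over 5726 genes). The fit with a replicate block moved 2 of 99 calls, both for stimulation of WT in the CD8 class: Sdhc lost its call (0.26) and Sdhaf1 gained one (0.29). Thinning to another depth moved the shares of cells with a UMI, as did no thinning. The cause of these changes was not tested.

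The subtype families were fitted once, with no alternative. With 2 libraries in each group, a single library decided several calls named in the report, and unstimulated Trdc-only values of SDHA-KO rest on 36 and 35 cells. Doublets and free RNA were not modeled.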
